A study of Mus musculus with 72 samples.

Results

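The 9 genes described here encode enzymes of the methionine cycle, of transsulfuration and of taurine synthesis, together with a serine hydroxymethyltransferase. They are Mat1a, Gnmt, Ahcy, Bhmt, Cbs, Cth, Cdo1, Csad and Shmt1, and they were found by matching symbols to the Ensembl gene identifiers of the liver count table. All 9 had counts, among 55573 genes in the table, and all 9 passed the filter on low counts in each comparison. The lowest count of any of them was 657, for Csad in a GF WT liver.

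Bulk liver mRNA was sequenced from 72 male mice, C57BL/6 in the labels and C57BL/6J in the study's methods, 1 library a mouse, in 4 groups of 18. WT mice carried Bmal1 fl/fl without Cre, and LKO mice carried Bmal1 fl/fl with Albumin-Cre, whose promoter acts in hepatocytes. Which other liver cells of LKO mice kept the floxed alleles intact was not measured. Each genotype was raised either specific pathogen free (SPF), with gut microbes, or germ free (GF), in isolators after rederivation. Livers were taken at ZT2, ZT6, ZT10, ZT14, ZT18 and ZT22, where ZT0 is lights on and the dark phase starts at ZT12, from 3 mice a group and time. All mice were 10 to 14 weeks old when they were placed in individual cages for 14 days, stool was then sampled, and livers followed 3 weeks later. Libraries held 17369927 to 22076113 counts in genes. Levels are given in CPM, counts scaled to library size and adjusted for library composition, and a log2 difference of 1 is a doubling.

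The deletion removes coding sequence of Bmal1 (Arntl in the table), and counts over the rest of the gene stay visible. Arntl had a median of 11.6 CPM in SPF LKO livers and ranged over 7.01 to 13.5 CPM in GF LKO livers, against 0.624 to 39.8 CPM in SPF WT and 0.331 to 40.8 CPM in GF WT livers, where it cycles. Npas2, a partner of BMAL1, separated the genotypes better, with 16.8 to 44.7 CPM in GF LKO against 0 to 12.9 CPM in GF WT livers. In 4 libraries the clock genes went against the label. The libraries labelled SPF LKO ZT14 replicate 2 and SPF LKO ZT18 replicate 1 had Npas2 at 0.220 and 1.81 CPM, where the other 16 SPF LKO libraries had 14.3 to 36.6 CPM. The libraries labelled SPF WT ZT14 replicate 3 and GF WT ZT6 replicate 3 had the clock output Nr1d1 at 84.9 and 9.34 CPM, against 8.63 and 3.09 CPM, and 50.6 and 49.4 CPM, in the other two of their time. The labels were kept, and results that turn on these 4 libraries are given with and without them.

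Methionine is activated to S-adenosylmethionine by the product of Mat1a, the methyl donor of the cell. Glycine N-methyltransferase (Gnmt) is the main liver enzyme that spends surplus methyl groups, and S-adenosylhomocysteine hydrolase (Ahcy) splits the by-product into homocysteine and adenosine. Homocysteine is then either remethylated to methionine, in liver with betaine as the donor (Bhmt), or committed to cysteine by cystathionine β-synthase (Cbs) and cystathionine γ-lyase (Cth). Cysteine dioxygenase (Cdo1) and cysteine sulfinic acid decarboxylase (Csad) carry cysteine on to taurine, which is used in bile acid conjugation. Serine hydroxymethyltransferase (Shmt1) links serine and glycine with the folate pool in the cytosol. Many metabolic genes of the liver follow the clock and feeding, through E-boxes (CACGTG) bound by CLOCK and BMAL1, ROR elements bound by REV-ERB and ROR proteins, and D-boxes.

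To show which of these letters stand before the genes that differed between genotypes, stretches before the transcript start are printed for Bhmt, Cbs, Gnmt and Ahcy, 5′ to 3′ on the coding strand, from RefSeq (GRCm38.p6). Capitals mark the matches found among 6 searched motifs, on both strands. Each run stops where the GENCODE gene model begins, within the 250 bases before the RefSeq start.
Bhmt (chr13:93637962-93638008, minus strand): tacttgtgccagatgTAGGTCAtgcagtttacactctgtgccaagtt
Cbs (chr17:31637239-31637455, minus strand): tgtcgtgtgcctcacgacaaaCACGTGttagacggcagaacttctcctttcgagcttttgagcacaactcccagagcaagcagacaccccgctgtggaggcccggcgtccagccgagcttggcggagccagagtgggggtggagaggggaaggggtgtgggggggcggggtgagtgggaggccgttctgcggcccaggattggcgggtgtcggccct
Gnmt (chr17:46729169-46729415, minus strand): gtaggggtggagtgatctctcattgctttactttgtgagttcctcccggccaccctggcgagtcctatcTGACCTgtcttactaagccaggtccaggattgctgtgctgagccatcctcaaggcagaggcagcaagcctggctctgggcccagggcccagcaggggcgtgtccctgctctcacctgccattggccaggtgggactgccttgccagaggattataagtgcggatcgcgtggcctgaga
Ahcy (chr2:155074498-155074747, minus strand): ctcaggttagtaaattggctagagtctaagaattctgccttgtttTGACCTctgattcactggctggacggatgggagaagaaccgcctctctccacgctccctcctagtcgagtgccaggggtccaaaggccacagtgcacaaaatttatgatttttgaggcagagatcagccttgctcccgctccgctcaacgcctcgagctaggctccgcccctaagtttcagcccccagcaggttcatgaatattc

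The Bhmt capitals are the ROR element core TAGGTCA, at positions -235 to -229 from the RefSeq start. The Cbs capitals are an E-box, at -229 to -224, and the Gnmt and Ahcy capitals are AGGTCA, an element shared by many nuclear receptors, on the opposite strand at -181 to -176 and -205 to -200. Within the 250 bases Bhmt held AGGTCA 3 times, of which the copy at -234 to -229 lies inside the ROR core. Of all 32851 RefSeq mouse promoter windows of this length, 6.02% held CACGTG, 2.23% TAGGTCA and 14% AGGTCA. The other letters searched, TTATGNAA (D-box), TGATGNAA (amino acid response element) and TGACNNNGC (antioxidant response element), were in 3.07%, 3.45% and 10.2% of windows and in none of the 7 member windows. Csad, with 2 start sites, and Shmt1 held none of the 6 motifs. Windows for Mat1a, Cth and the remaining member were not in the table used. A match describes letters and not a bound site.

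In the annotation (GRCm38, GENCODE M21), Mat1a lies at chr14:41105035-41124412, plus strand, Gnmt at chr17:46725664-46729168, minus strand, Ahcy at chr2:155059310-155074497, minus strand and Bhmt at chr13:93616675-93637961, minus strand. Cbs lies at chr17:31608894-31637238, minus strand, Cth at chr3:157894248-157925077, minus strand, Csad at chr15:102176999-102204724, minus strand and Shmt1 at chr11:60788104-60811718, minus strand. Counts were summed over exons without strand. Exons of Bhmt overlap the antisense gene Gm15622, those of Csad overlap Zfp740 and those of Shmt1 overlap Smcr8, so reads in the overlaps could not be assigned. Reads were 50 bases, and 68.7% of the distinct 50-base words in Ahcy transcripts also occur in transcripts of other genes, most of them in Gm4737. The same share was 26.1% for Bhmt, mostly shared with the retrogene Gm5096, and at most 3.43% for the other 7. The counting command in the file header sets no option for reads that map to several places, which the program then leaves out, so the levels of Ahcy and Bhmt may be understated relative to the other genes.

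Per length, the 9 genes ranged over a wide span. In SPF WT livers the group medians were 1216 RPKM for Gnmt, 1136 for Cdo1 and 1032 for Mat1a. Cth followed at 170.4 RPKM, then Bhmt at 94.9 and Ahcy at 90.6. Csad, Shmt1 and Cbs were lowest, with Shmt1 at 48.6 and Cbs at 46.1 RPKM. In GF LKO livers Bhmt had moved to 385 RPKM, above Cth at 338, and Csad was the lowest at 19.9. Over the 24 means of group and time, Csad spanned 11.1-fold and Bhmt 7.65-fold. Ahcy, Cbs and Cth spanned 3.47-, 3.44- and 3.20-fold, and Shmt1 the least, 1.87-fold.

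**Figure D1:**
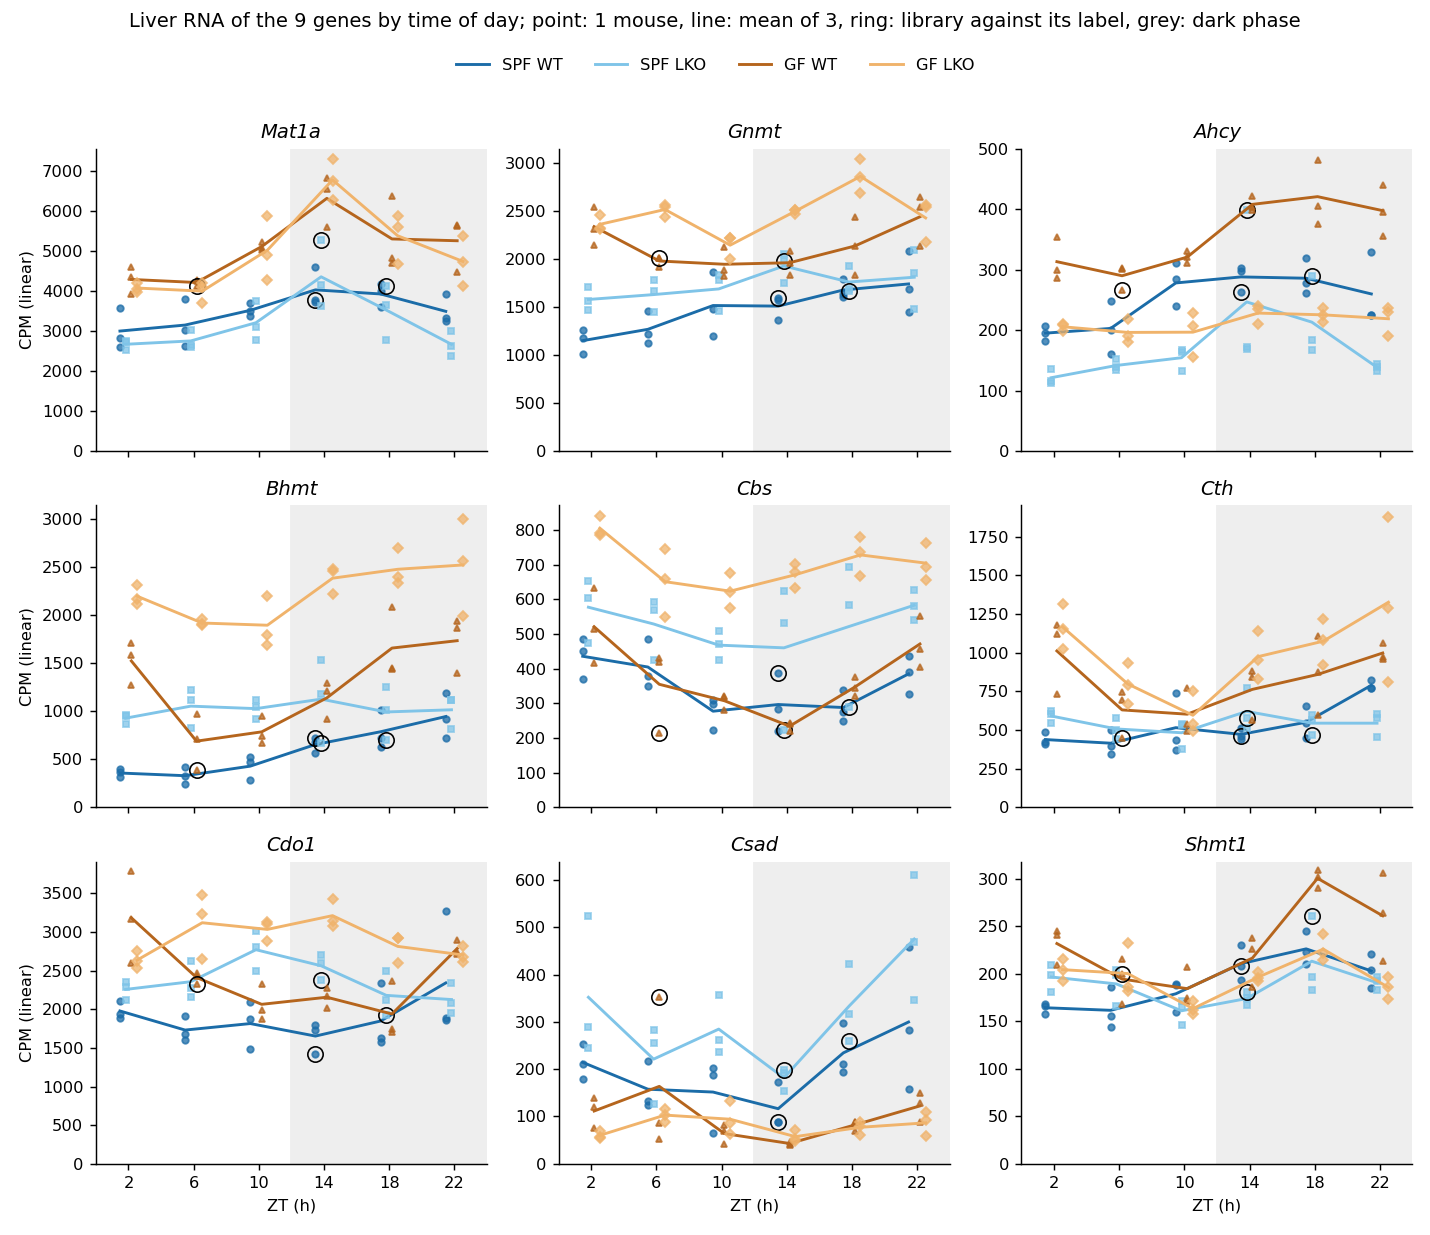
Level of each of the 9 genes in CPM (linear axis from 0) against ZT in hours, with 1 point for each mouse, a line through the means of 3 mice for each of the 4 groups, black rings on the 4 libraries whose clock genes went against their label, and the dark phase in grey. Bhmt shows the SPF WT line lowest and the GF LKO line highest at every time, and Ahcy shows the LKO line below the WT line of the same microbial state.

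Pooled over the 6 times, 6 of the 9 genes differed between LKO and WT livers in SPF mice and 6 in GF mice, and 8 differed between GF and SPF livers in WT mice and 8 in LKO mice. In bulk liver, fewer cells of a type and less RNA in each cell cannot be told apart. Log2 differences are given with their SE and the edgeR p adjusted over all genes tested. Of the 6 called in SPF LKO livers 5 were higher and 1 was lower, where 23.1% of all genes tested were called (11.6% higher and 11.5% lower). In GF LKO livers 4 were higher and 2 lower, against 30.8% of all genes (15.6% and 15.2%). In GF WT livers 7 were higher and 1 lower than in SPF WT, against 31.8% of all genes (14.2% and 17.7%), and in GF LKO livers 7 were higher and 1 lower than in SPF LKO, against 36.4% (18.1% and 18.4%). Each group serves in 2 of these 4 comparisons, so they are not independent of each other. The median log2 difference over the 9 genes was 0.23 and 0.22 for genotype in SPF and GF mice and 0.49 and 0.41 for microbial state in WT and LKO mice, beside a median between -0.02 and 0.01 over all genes.

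**Figure D2:**
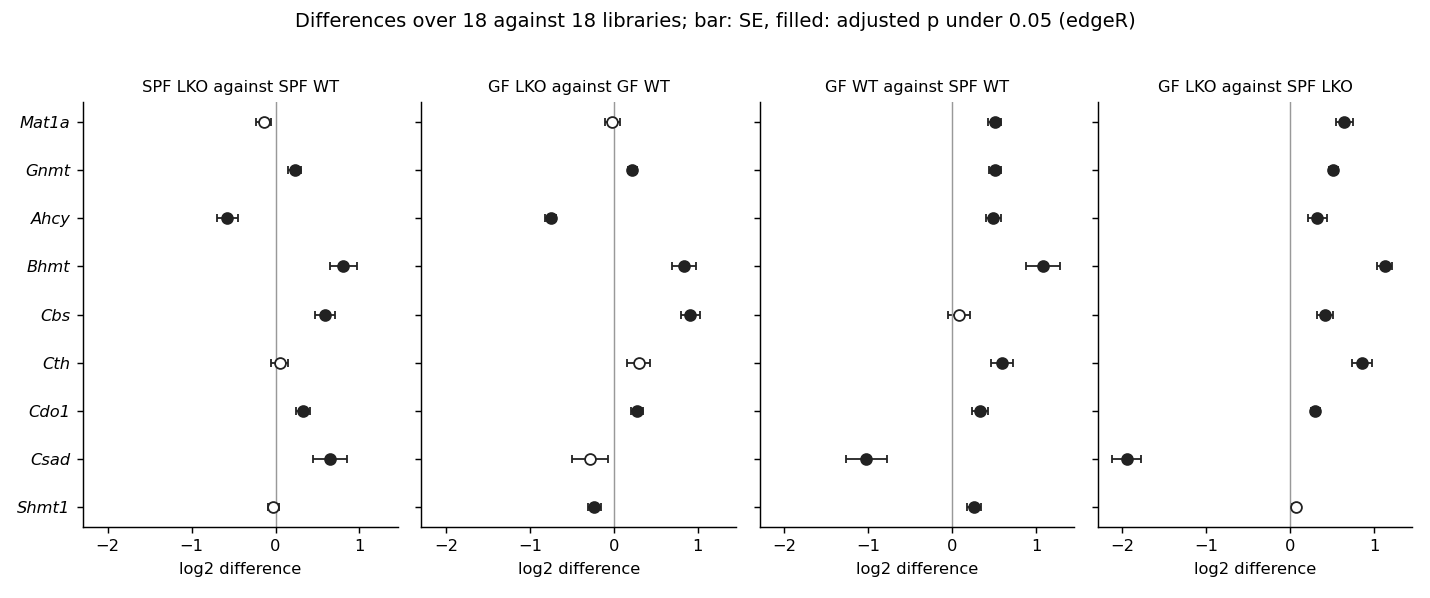
Log2 difference of each gene in the 4 pooled comparisons of 18 against 18 libraries, with the SE as a bar and filled points for an adjusted p under 0.05 in edgeR. Ahcy lies left of 0 and Bhmt right of 0 in both genotype panels, and Csad lies far left in both microbial panels.

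Mat1a, which makes S-adenosylmethionine, was higher in GF than SPF livers of both genotypes. It ranged over 2589 to 4583 CPM (median 3578) in SPF WT and 2374 to 5269 CPM (median 2880) in SPF LKO livers. GF WT livers had 3907 to 6805 CPM (median 4923) and GF LKO livers 3681 to 7292 CPM (median 4700). Of the GF WT libraries 12 lay above every SPF WT library, while the 2 genotypes overlapped in both states. The log2 difference GF minus SPF was 0.51 ± 0.08 (adjusted p = 5.32e-06) in WT and 0.64 ± 0.10 (adjusted p = 6.89e-06) in LKO livers. LKO minus WT was -0.14 ± 0.09 (adjusted p = 0.281) in SPF and -0.02 ± 0.09 (adjusted p = 0.908) in GF livers. Without the 4 libraries the former was -0.22 ± 0.08 (adjusted p = 0.0332) and became a call.

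Gnmt was higher in both contrasts. SPF WT livers had 1010 to 2086 CPM (median 1468) and SPF LKO livers 1447 to 2097 CPM (median 1727). In GF WT the range was 1823 to 2643 CPM (median 2109) and in GF LKO 2002 to 3046 CPM (median 2490). Ordered by medians the groups ran from SPF WT through SPF LKO and GF WT to GF LKO, and 17 of 18 GF LKO livers exceeded every SPF LKO liver. The genotype difference was 0.23 ± 0.08 (adjusted p = 0.0246) in SPF and 0.22 ± 0.05 (adjusted p = 0.00191) in GF mice. The microbial difference was 0.51 ± 0.08 (adjusted p = 5.29e-06) in WT and 0.51 ± 0.05 (adjusted p = 6.15e-09) in LKO mice.

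Ahcy was the only one of the 9 called lower in LKO livers of both states, and it was called higher in GF livers of both genotypes. It ranged over 160.4 to 330.2 CPM (median 254) in SPF WT and 113 to 399 CPM (median 147) in SPF LKO livers, where the highest value is the library labelled ZT14 replicate 2. GF WT livers held 266 to 482 CPM (median 356) and GF LKO livers 155 to 240.1 CPM (median 212). All 18 GF LKO livers lay below all 18 GF WT livers, and 10 SPF LKO livers lay below every SPF WT liver. The log2 difference LKO minus WT was -0.57 ± 0.13 (adjusted p = 0.00102) in SPF mice (1.49-fold lower) and -0.75 ± 0.07 (adjusted p = 1.02e-11) in GF mice (1.68-fold lower). Without the 4 libraries the SPF value was -0.77 ± 0.09 (adjusted p = 1.2e-08), and SPF LKO livers ranged over 113 to 183 CPM (median 142). GF exceeded SPF by 0.49 ± 0.09 (adjusted p = 5.33e-05) in WT mice and by 0.32 ± 0.12 (adjusted p = 0.0279) in LKO mice, the latter being 0.52 ± 0.06 (adjusted p = 8.53e-08) without the 4 libraries.

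Bhmt, the betaine-dependent route back to methionine, had the largest rise of the 9 in every contrast but that of genotype in GF mice, where Cbs exceeded it. SPF WT livers had 248 to 1195 CPM (median 546), SPF LKO livers 674 to 1534 CPM (median 1030), GF WT livers 388 to 2087 CPM (median 1285) and GF LKO livers 1693 to 3009 CPM (median 2214). The lowest SPF LKO and GF WT values came from the libraries labelled ZT14 replicate 2 and ZT6 replicate 3. Without the 4 libraries the lowest were 813 and 669 CPM. The 18 GF LKO livers lay above all 18 SPF LKO livers, and 12 of them lay above every GF WT liver. The genotype difference was 0.81 ± 0.16 (adjusted p = 0.000273) in SPF mice (1.75-fold) and 0.84 ± 0.14 (adjusted p = 1.41e-05) in GF mice (1.79-fold). The microbial difference was 1.08 ± 0.20 (adjusted p = 0.000108) in WT (2.12-fold) and 1.12 ± 0.09 (adjusted p = 1.35e-12) in LKO mice (2.18-fold). The genotype difference in GF minus that in SPF mice was 0.02 ± 0.22 (adjusted p = 0.9996).

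Cbs, which commits homocysteine to cysteine, was higher in LKO than WT livers in both states. It ranged over 219.5 to 485 CPM (median 345) in SPF WT and 214 to 633 CPM (median 360.2) in GF WT livers. SPF LKO livers had 224 to 693 CPM (median 554) and GF LKO livers 549 to 839.5 CPM (median 685). The lowest SPF LKO values came from the libraries labelled ZT14 replicate 2 and ZT18 replicate 1, at 224.5 and 289.5 CPM, and 12 of the 18 still lay above every SPF WT liver. LKO minus WT was 0.59 ± 0.12 (adjusted p = 0.000243) in SPF and 0.91 ± 0.11 (adjusted p = 1.9e-08) in GF mice. GF minus SPF was 0.08 ± 0.13 (adjusted p = 0.669) in WT and 0.41 ± 0.09 (adjusted p = 0.000886) in LKO mice. Whether the genotype difference itself differed with microbes was tested, and that difference was 0.32 ± 0.16 (adjusted p = 0.809).

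Cth, the next enzyme of transsulfuration, was called for microbial state and not for genotype. SPF WT livers had 347 to 821 CPM (median 476), SPF LKO livers 381 to 775 CPM (median 555), GF WT livers 447 to 1179 CPM (median 809) and GF LKO livers 494 to 1877 CPM (median 944). Values without microbes were higher, and 14 GF LKO livers exceeded every SPF LKO liver. GF minus SPF was 0.59 ± 0.13 (adjusted p = 0.000798) in WT and 0.85 ± 0.12 (adjusted p = 1.09e-06) in LKO mice. LKO minus WT was 0.05 ± 0.10 (adjusted p = 0.788) in SPF and 0.29 ± 0.14 (adjusted p = 0.115) in GF mice, and the latter passed the test with ZT as a covariate.

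Cdo1 and Csad act in sequence toward taurine and went opposite ways in GF livers. Cdo1, which opens cysteine breakdown, ranged over 1425 to 3272 CPM (median 1866) in SPF WT, 1923 to 3016 CPM (median 2350) in SPF LKO, 1701 to 3791 CPM (median 2348) in GF WT and 2532 to 3481 CPM (median 2900) in GF LKO livers. All 4 of its differences passed the test, with 0.33 ± 0.08 (adjusted p = 0.00235) and 0.28 ± 0.08 (adjusted p = 0.00496) for genotype in SPF and GF mice. For microbial state they were 0.34 ± 0.10 (adjusted p = 0.00692) in WT and 0.30 ± 0.06 (adjusted p = 9.63e-05) in LKO mice.

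Csad was the only one of the 9 called lower in GF livers, in both genotypes. SPF WT livers had 64.6 to 458 CPM (median 192) and SPF LKO livers 126 to 610.2 CPM (median 273). GF WT livers had 40.8 to 352 CPM (median 83.5), where the highest is the library labelled ZT6 replicate 3, and GF LKO livers 48.5 to 133 CPM (median 76.3). Of the GF LKO livers 17 lay below every SPF LKO liver. GF minus SPF was -1.02 ± 0.24 (adjusted p = 0.00156) in WT (2.03-fold lower) and -1.95 ± 0.17 (adjusted p = 3.3e-11) in LKO mice (3.87-fold lower). LKO minus WT was 0.65 ± 0.20 (adjusted p = 0.0153) in SPF and -0.29 ± 0.21 (adjusted p = 0.335) in GF mice. The difference between these 2 was -0.95 ± 0.30 (adjusted p = 0.218), with an unadjusted p of 0.0023, so a different genotype effect in GF mice was not called. With the 4 libraries left out, the genotype difference in GF mice was -0.05 ± 0.17 (adjusted p = 0.864) and the microbial difference in WT mice -1.31 ± 0.21 (adjusted p = 1.12e-05).

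Shmt1 had the smallest span of the 9 over the 24 means of group and time. The groups had 144 to 246 CPM (median 189) in SPF WT, 146 to 261 CPM (median 183) in SPF LKO, 168 to 309.7 CPM (median 221) in GF WT and 157 to 242 CPM (median 194) in GF LKO livers, with overlap throughout. It was higher in GF than SPF livers of WT mice (0.26 ± 0.08, adjusted p = 0.0159) and lower in LKO than WT livers of GF mice (-0.23 ± 0.08, adjusted p = 0.019). Both of these contrasts rest on GF WT, the group with the highest median, and the other 2 were -0.02 ± 0.07 (adjusted p = 0.831) for genotype in SPF mice and 0.06 ± 0.06 (adjusted p = 0.431) for microbial state in LKO mice. Over all 9 genes the test of a genotype effect that differs between GF and SPF mice called none, by edgeR or DESeq2. By edgeR 0.438% of all genes were called. An unadjusted p under 0.05 was reached by 2 of the 9, beside 876 of 13484 genes.

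Time by time, with 3 against 3 livers, calls fell at different times for different genes, and no test compared the times. For genotype in SPF mice 3 of 9 were called at ZT2 (background 6.89%), 2 at ZT6 (7.26%), 4 at ZT10 (11.9%) and 2 at ZT22 (3.31%). None was called at ZT14 (0%) or ZT18 (0.015%) by edgeR, and DESeq2 called 1 at each, with its share over all genes not given here. At ZT14 and ZT18 an unadjusted p of 0.05 was passed by 5 and 3 of the 9, beside 1484 of 13317 and 1413 of 13326 genes. Those are the times of 3 of the 4 doubted libraries. Without them 4 genes were called at ZT14 (background 5.51%), namely Ahcy (-0.82 ± 0.10, adjusted p = 0.000506), Bhmt (1.12 ± 0.18, adjusted p = 0.00212), Cbs (1.20 ± 0.14, adjusted p = 0.0003) and Cdo1 (0.58 ± 0.11, adjusted p = 0.0081). At ZT18 Ahcy (-0.69 ± 0.13, adjusted p = 0.00755) and Cbs (1.16 ± 0.14, adjusted p = 0.000329) were called without them (background 4.63%). For genotype in GF mice, 4 genes were called at ZT10 (background 13.1%) and 3 at each other time (ZT2 4.21%, ZT6 11.7%, ZT14 6.1%, ZT18 8.43%, ZT22 4.44%). Without the 4 libraries 5 were called at ZT14 (background 13.6%), where Ahcy (-0.83 ± 0.08, adjusted p = 4.11e-05) and Gnmt (0.36 ± 0.10, adjusted p = 0.0357) were added, and 4 at ZT18 (background 11.01%), where Shmt1 (-0.38 ± 0.09, adjusted p = 0.0149) was added, and at ZT6 the count stayed at 3.

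Cbs and Ahcy differed between genotypes at most times in GF mice, and Bhmt at ZT2, ZT6 and ZT10 in SPF mice. In GF mice Cbs was higher in LKO livers at all 6 times, from 0.58 at ZT22 to 1.52 at ZT14. At ZT14 the 3 GF WT livers held 239.5, 244 and 219 CPM and the 3 GF LKO livers 701, 634 and 678 CPM (1.52 ± 0.30, adjusted p = 0.0148). Ahcy was lower in GF LKO livers at all 6 times and called at 5 of them, with called values from -0.56 at ZT6 to -0.87 at ZT18. Bhmt in SPF LKO livers was higher at ZT2, ZT6 and ZT10 (1.37, 1.67 and 1.26), where WT levels are low. At ZT6 the SPF WT livers held 419, 248 and 322 CPM against 1223, 1114 and 828 CPM in SPF LKO (1.67 ± 0.28, adjusted p = 0.00254). At ZT22, when WT levels were high, the same difference was 0.10 ± 0.21 (adjusted p = 0.888). Cdo1 was higher in LKO livers at ZT10 in SPF mice (0.61) and at ZT10 and ZT14 in GF mice (0.56 and 0.58).

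The microbial difference in WT mice was called for the most genes at ZT2, and no test compared the times. At ZT2 8 of 9 genes were called, against 10.1% of all genes, 7 higher and Csad lower. At that hour Bhmt was at 312, 398 and 365 CPM in SPF WT and 1712, 1274 and 1593 CPM in GF WT livers, a log2 difference of 2.09 ± 0.13 (adjusted p = 5.85e-06). Gnmt (1.02) and Cth (1.20) also rose by more than a doubling at ZT2. At the other times 1 gene each was called at ZT6 (2.62% of all genes), ZT10 (2.89%) and ZT18 (0.983%). An unadjusted p of 0.05 was passed by 8 genes at ZT2 and by 6, 4 and 7 at these 3 times. Over all genes it was passed by 3740 of 13596 at ZT2 and by 3407 of 13609, 2510 of 13442 and 2386 of 13326 at these times. At ZT14 (0.0751%) and ZT22 (0.516%) edgeR called 0 and DESeq2 called 6 and 4. DESeq2 called 5069 genes summed over the 6 times, and its share at each time is not given here. At ZT14 and ZT22 6 of the 9 passed an unadjusted p of 0.05, beside 1958 of 13317 and 2321 of 13576 genes. Without the 4 libraries 3 were called at ZT6 (background 3.69%), 3 at ZT14 (2.32%) and 4 at ZT18 (1.84%).

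In LKO mice the microbial difference had the most edgeR calls at ZT2, ZT22 and ZT18 with all libraries, and no test compared the times. There were 6 genes called at ZT2 (background 8.92%), 5 at ZT22 (2.25%) and 4 at ZT18 (3.71%), with 1 each at ZT10 (0.982%) and ZT14 (0.0601%). At ZT6 edgeR called 0 (0.309%) and DESeq2 called 6, where DESeq2 called 5110 genes summed over the 6 times. From ZT2 to ZT22, in order of time, an unadjusted p of 0.05 was passed by 7, 6, 6, 6, 5 and 6 of the 9. All-gene counts were 3640 of 13596, 2378 of 13609, 1909 of 13442, 1964 of 13317, 3062 of 13326 and 3063 of 13576. Csad was lower in GF LKO livers at ZT2, ZT14, ZT18 and ZT22, with a log2 difference of -2.54 at ZT2, where the SPF LKO livers held 244, 524 and 289 CPM and the GF LKO livers 56.1, 70.2 and 54.1 CPM. At ZT22 Cth was higher (1.29 ± 0.23, adjusted p = 0.0142), as was Bhmt (1.32 ± 0.21, adjusted p = 0.00921). Without the 4 libraries 3 genes were called at ZT6 (background 2.76%), 3 at ZT14 (0.756%) and 2 at ZT18 (0.450%).

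**Figure D3:**
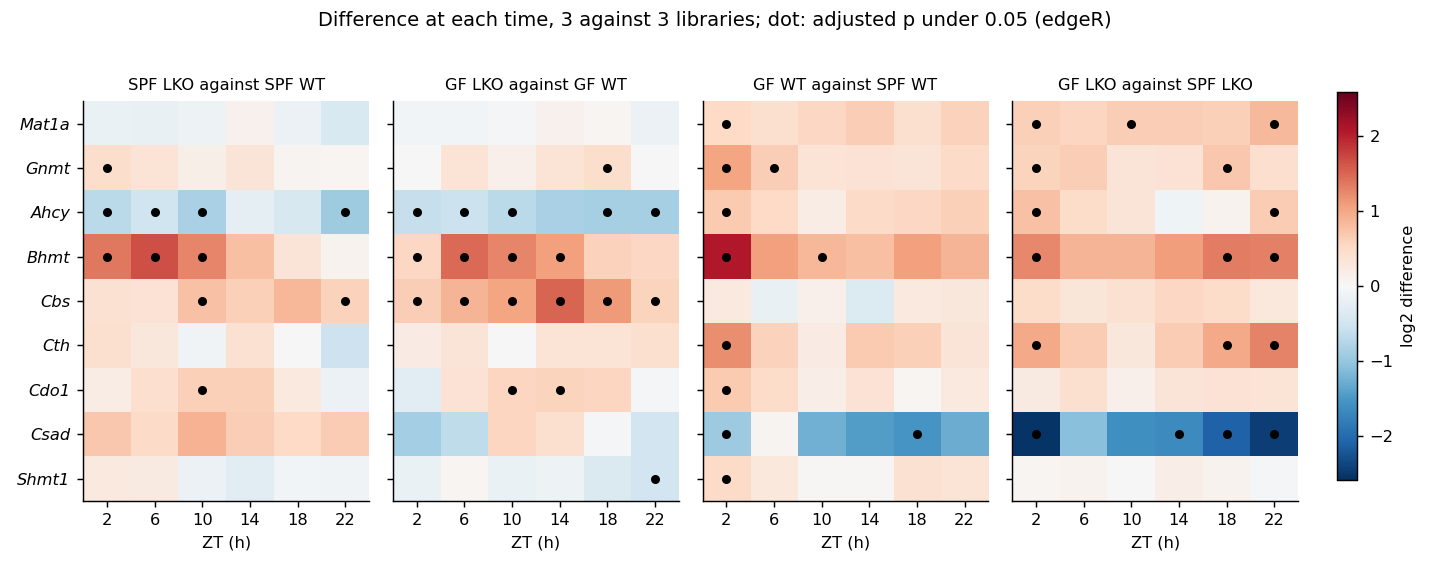
Log2 difference (colour) of each gene at each ZT in hours, for the 4 comparisons of 3 against 3 libraries, with a dot where the adjusted p was under 0.05 in edgeR. Cbs carries a dot at all 6 times in the panel GF LKO against GF WT, and the ZT2 column of the panel GF WT against SPF WT carries 8 dots.

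A cosine with a period of 24 h was then fitted to each group. In SPF WT livers 7 of the 9 genes were called rhythmic (23.8% of all genes) and in GF WT livers all 9 (32.2%). Without the 4 doubted libraries these were 8 (29.39%) and 9 (36.55%), with Cth added in SPF WT livers (adjusted p = 0.0399). In SPF LKO livers 2 were called (25.4%) and in GF LKO livers 2 (32.1%), or 3 (19.39%) and 2 (35.19%) without the 4 libraries. The tests used 1 spread for each gene over all 4 groups, while fitted swings and their SEs come from each group alone. A gene that was not called was not shown to lack a rhythm. Bhmt in GF LKO livers, for instance, had a fitted swing of 0.45 ± 0.10 on the log2 scale (adjusted p = 0.185). The swing from peak to trough was smaller in LKO than WT livers for 6 of the 9 genes in SPF mice, with medians of 0.63 and 0.36 on the log2 scale, and for 7 of the 9 in GF mice, with medians of 0.65 and 0.27. Without the 4 libraries the Ahcy swing in SPF mice was also smaller in LKO (0.491) than WT livers (0.676). Swings were not counted over all genes. Losing a call is not a difference by itself. The test of the difference called 2 genes for LKO against WT in SPF mice (1.77% of all genes), 1 in GF mice (5.89%), 0 for GF against SPF in WT mice (0.0371%) and 1 in LKO mice (2.54%).

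Bhmt had the largest fitted swing of the 9 in both WT groups with all libraries. Without the 4 doubted libraries Csad exceeded it in GF WT livers, with 1.321 ± 0.26 against 1.253 ± 0.18 on the log2 scale, which was not tested, while in SPF WT livers Bhmt was at 1.51 ± 0.26 and Csad at 1.11 ± 0.38. In SPF WT mice the Bhmt level went from 330.1 ± 85.7 CPM (SD, n = 3) at ZT6 to 947 ± 237 CPM at ZT22, and in GF WT mice from 690.1 ± 294 CPM to 1737 ± 295 CPM at the same hours. The GF WT libraries at ZT6 held 708, 974 and 388 CPM, of which the lowest is the doubted replicate 3. The fitted swing was 1.52 ± 0.25 and 1.45 ± 0.25 on the log2 scale in these groups. In LKO livers it was 0.13 ± 0.21 in SPF mice, or 0.38 ± 0.16 without the 4 doubted libraries, and 0.45 ± 0.10 in GF mice. The rhythm differed between genotypes in SPF mice (adjusted p = 0.00236) and missed the threshold in GF mice (adjusted p = 0.072). The lowest mean of SPF LKO livers over the 6 times was 929.7 ± 52.7 CPM, beside a highest of 947 ± 237 CPM in SPF WT, and the lowest of GF LKO livers was 1898 ± 272 CPM, beside a highest of 1737 ± 295 CPM in GF WT.

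Cdo1 differed between genotypes in its fitted rhythm, with fitted peaks at different times of day. In WT livers its fitted peak came around lights on, at ZT23.2 ± 1.87 h in SPF and ZT1.62 ± 0.830 h in GF mice. In LKO livers the fitted peak came near the end of the day, at ZT10.4 ± 0.927 h in SPF and ZT11.2 ± 1.03 h in GF mice. The rhythm differed between genotypes in both states, with an adjusted p of 0.0332 in SPF and 0.00245 in GF mice. That test takes swing and phase together, and phase alone was not tested. The Cdo1 swing was 0.352 in WT and 0.359 in LKO livers of SPF mice, and 0.625 and 0.268 in GF mice. Within the groups the rhythm of Cdo1 was called in GF WT livers (adjusted p = 0.000219) and missed the threshold in SPF WT (0.0517), SPF LKO (0.0687) and GF LKO livers (0.206).

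Mat1a kept its rhythm in all 4 groups. Its swing was 0.44 in SPF WT, 0.67 in SPF LKO, 0.51 in GF WT and 0.69 in GF LKO livers on the log2 scale. It peaked early in the night, between ZT14.3 and ZT15.6, in each of them. Without the 4 doubted libraries the Mat1a swing in SPF LKO livers was 0.505, with a peak at ZT13.9. Cth, by contrast, was called in GF LKO livers, with a swing of 0.97 ± 0.22 and a peak at ZT21.6 ± 0.878 h, and in GF WT livers (0.78 ± 0.23). In SPF LKO livers its swing was 0.16 ± 0.16, and the difference of the rhythm between GF and SPF LKO mice had an adjusted p of 0.148.

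Cbs and Shmt1 had smaller swings in LKO livers, and the difference of the rhythm passed the test in no state with all libraries. Cbs peaked at the start of the day in WT livers, at ZT2.03 ± 0.916 h in SPF and ZT0.578 ± 0.719 h in GF mice, with swings of 0.71 ± 0.17 and 1.02 ± 0.19. The swing was 0.45 ± 0.27 in SPF LKO and 0.27 ± 0.09 in GF LKO livers. For the genotype difference of the Cbs rhythm the adjusted p was 0.646 in SPF and 0.103 in GF mice, and 0.00314 and 0.000664 without the 4 libraries. For Shmt1 in SPF mice the adjusted p was 0.128, and 0.0188 without them. In GF mice the Shmt1 value stayed over the threshold, at 0.121.

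The difference of the Ahcy rhythm between GF and SPF LKO mice was called with all libraries and not without the 4 doubted ones. The rhythm differed between GF and SPF LKO mice (adjusted p = 0.0419), with swings of 0.87 ± 0.22 in SPF LKO and 0.24 ± 0.10 in GF LKO livers. At ZT14 the SPF LKO libraries held 172, 399 and 169.6 CPM, of which the highest is the doubted replicate 2. Without the 4 libraries the swing in SPF LKO livers was 0.49 ± 0.09, the rhythm in that group was still called (adjusted p = 0.00563), and the adjusted p of the difference was 0.234.

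In SPF WT livers the fitted peaks ran from early night to the start of the day. In SPF WT mice Ahcy (ZT15.4) and Mat1a (ZT15.6) came early, then Gnmt (ZT17.1), Shmt1 (ZT17.3) and Bhmt (ZT18.4). Cth (ZT20.1), Csad (ZT22.6) and Cdo1 (ZT23.2) followed, and Cbs (ZT2.03) came last. The rhythms of Cth (adjusted p = 0.051) and Cdo1 (adjusted p = 0.0517) were not called in SPF WT livers. Each step in this order except that from Cdo1 to Cbs was smaller than the sum of the 2 SEs, and the order was not tested. The GF WT order was another, with Gnmt (ZT23.0) after Cth (ZT21.9) and Cdo1 (ZT1.62) last rather than Cbs (ZT0.578). In GF WT mice 7 of the 9 fitted peaks were later than in SPF WT mice, by 5.84 ± 1.52 h for Gnmt, 2.86 ± 0.901 h for Shmt1 and 2.69 ± 1.66 h for Csad. Mat1a (-0.03 ± 1.23 h) and Cbs (-1.46 ± 1.17 h) were the others. How many of all genes had a later fitted peak in GF WT mice was not counted. None of the 9 rhythms differed between GF and SPF WT mice in the test across all genes by edgeR, and limma called 0. By edgeR 4 of them had an unadjusted p under 0.05, beside 1910 of 13484 genes.

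**Figure D4:**
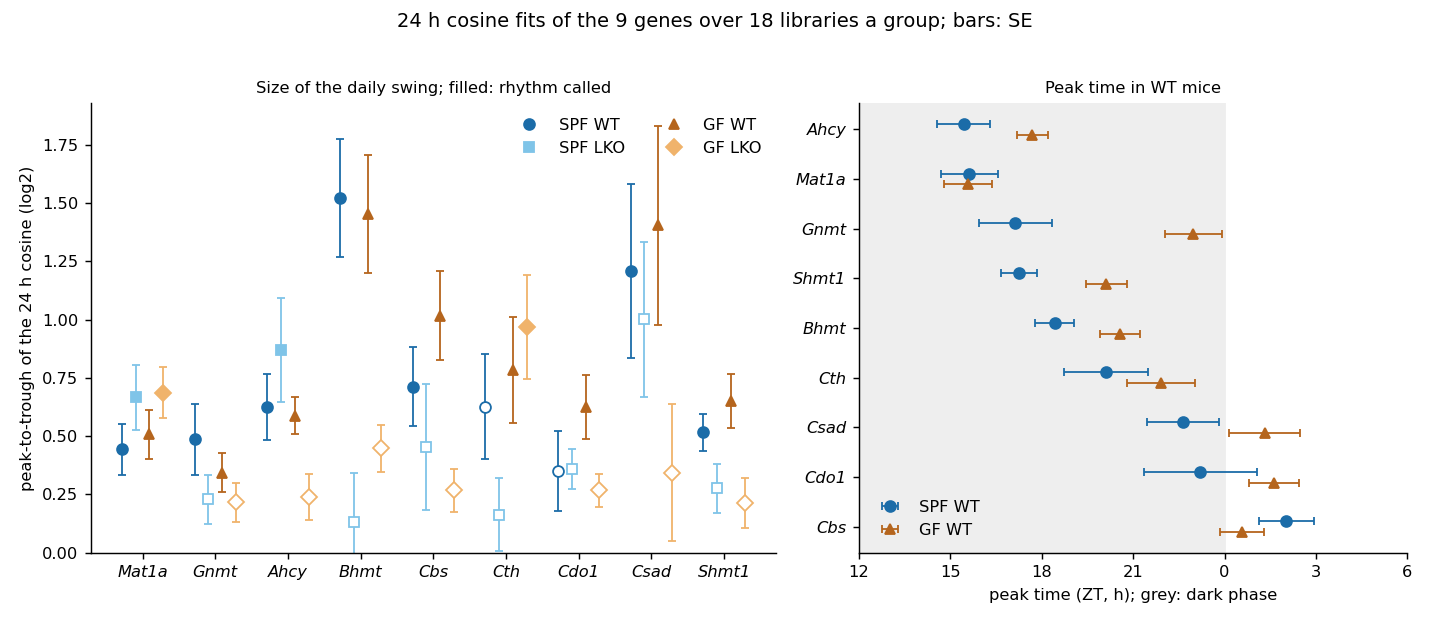
Left, the fitted swing from peak to trough on the log2 scale with its SE for each gene and group, filled where the 24 h rhythm was called. Right, the fitted peak time in ZT hours with its SE in the 2 WT groups, where Ahcy and Mat1a peak first in SPF WT mice and Cbs last.

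Around these enzymes, 47 further genes of the pathways were counted, of which 45 were tested in SPF mice. For genotype in SPF mice 15 were called, 11 higher and 4 lower, and in GF mice 20 of 44, 10 higher and 10 lower. For microbial state 20 of 45 were called in WT mice, 17 higher and 3 lower, and 21 of 45 in LKO mice, 16 higher and 5 lower. The share called was 33.3% and 45.5% for genotype and 44.4% and 46.7% for microbial state, beside the background shares above. A 24 h rhythm was called for 21 of 45 of these genes in SPF WT livers (46.7%, against 23.8% of all genes) and for 11 of 45 in SPF LKO livers (24.4%, against 25.4%). In GF WT livers it was called for 34 of 45 (75.6%, against 32.2%) and in GF LKO livers for 20 of 45 (44.4%, against 32.1%).

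Ahcyl2, a relative of Ahcy, rose in LKO livers (0.76 ± 0.12 in SPF and 0.82 ± 0.12 in GF mice). Chdh, which makes the betaine aldehyde that BHMT's substrate comes from, fell (-0.47 ± 0.07 and -0.68 ± 0.05), as did the mitochondrial folate carrier Slc25a32 (-0.52 ± 0.10 and -0.69 ± 0.14). In GF livers Dmgdh, which breaks down the dimethylglycine that BHMT releases, rose by 0.67 ± 0.07 in WT and 0.82 ± 0.06 in LKO mice. Got1 rose by 0.88 ± 0.17 and 0.77 ± 0.13, and Nnmt, which methylates nicotinamide, by 0.56 ± 0.18 and 1.03 ± 0.21. The taurine transporter gene Slc6a6 fell in GF livers, with -0.45 ± 0.11 in WT and -0.40 ± 0.10 in LKO mice on the log2 scale. Gclc, a subunit of the first enzyme of glutathione synthesis, fell in GF LKO livers (-0.51 ± 0.17).

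The neighbours of Bhmt were looked up after their likeness to it had been seen, and are given as a description. Both Bhmt2 and Dmgdh, which lie beside it, were called in the same direction in the 4 pooled comparisons. At their nearest bases, Bhmt2 (chr13:93655720-93674302, minus strand) lies 17759 bases from Bhmt and Dmgdh (chr13:93674433-93752833, plus strand) 36472 bases from it. Bhmt2 was higher in LKO livers by 0.38 ± 0.06 in SPF and 0.42 ± 0.09 in GF mice, and in GF livers by 0.53 ± 0.09 in WT and 0.58 ± 0.05 in LKO mice. Dmgdh was higher by 0.43 ± 0.07, 0.56 ± 0.07, 0.67 ± 0.07 and 0.82 ± 0.06 in the same order. The protein-coding genes on either side of this group, Jmy and Arsb, had a Pearson r with Bhmt of 0.0920 and -0.0966 over the 24 means. Bhmt and Bhmt2 transcripts share 10 of their 50-base words.

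By likeness of pattern, the 3 genes of 10710 with the highest Pearson r over the 24 means of group and time were Gm5096 (0.98), Bhmt2 (0.96) and Dmgdh (0.94) for Bhmt. Gm5096 transcripts share 1389 distinct 50-base words with those of Bhmt. For Ahcy they were Rbp4 (0.97), Sult1a1 (0.97) and Ddt (0.96), for Cbs Lgals9 (0.97), Stom (0.96) and Ccdc162 (0.95), and for Gnmt Rplp1 (0.95), Eif3h (0.94) and Smdt1 (0.93). The nearest were Ppp2ca for Mat1a (0.92), Tmx2 for Cth (0.91), Apoh for Cdo1 (0.91), Mpst for Shmt1 (0.88) and Sgce for Csad (0.87). Among the 9 themselves Gnmt and Bhmt were most alike (0.92), then Gnmt and Cth (0.87), and Mat1a and Csad were most opposed (-0.85). The points share libraries, depth and the group differences given above.

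These enzymes are made mostly by hepatocytes, so marker levels are given beside the differences. All 6 hepatocyte markers were present and none was at 0 in any group. Their summed level had a median of 105200 CPM (81820 to 131400) in SPF WT and 58420 CPM (41050 to 123600) in SPF LKO livers, whose highest is the doubted ZT18 replicate 1, and 132100 CPM (110700 to 171400) in GF WT and 59680 CPM (50700 to 73030) in GF LKO livers. Alb itself was lower in LKO livers, with log2 differences of -0.98 ± 0.15 in SPF and -1.70 ± 0.07 in GF mice, and it was the 1 called of the 6 in SPF mice. In GF mice 3 of the 6 were called, Alb and Ttr (-0.21 ± 0.06) lower and Fgb (0.26 ± 0.09) higher, and Apoa1, Serpina1a and Tat were not called in either state. Between GF and SPF livers 4 of the 6 were called higher in WT mice. These were Apoa1 (0.53 ± 0.06), Serpina1a (0.45 ± 0.05), Alb (0.37 ± 0.07) and Ttr (0.30 ± 0.06), beside a median of 0.49 over the 9 enzymes. In LKO mice 4 were called higher, Apoa1 (0.54 ± 0.08), Serpina1a (0.56 ± 0.06), Tat (0.59 ± 0.18) and Fgb (0.28 ± 0.08), and Alb lower (-0.35 ± 0.14), beside a median of 0.41 over the 9. Ptprc, a marker of leukocytes, was lower in GF livers (-0.71 ± 0.15 in WT and -0.58 ± 0.10 in LKO mice). Sums of 6 pericentral markers had medians of 9588, 9590, 11660 and 10040 CPM in SPF WT and LKO and then GF WT and LKO livers, and those of 6 periportal markers 3719, 3358, 4042 and 3832 CPM. Cholangiocyte markers (3 of 4 at 1 CPM or more) had medians of 8.03, 13.5, 6.58 and 9.64 CPM in that order, Kupffer cell markers 238, 201, 214 and 178 CPM, and lymphocyte and neutrophil markers 13.2, 10.6, 8.65 and 7.70 CPM. Sinusoidal endothelial markers had medians of 142, 137, 137 and 140.1 CPM and stellate cell markers of 278, 294, 265 and 304 CPM. Mitochondrial genes took a median of 6.40%, 4.82%, 7.88% and 5.41% of counts in the same order. Sums can follow single genes. Of the cholangiocyte markers Sox9 alone was called for genotype (1.17 ± 0.20 in SPF and 0.78 ± 0.17 in GF mice), and Krt19, Krt7 and Epcam were not. Among the pericentral markers Oat was called higher (0.76 ± 0.14) and Slc1a2 lower (-0.66 ± 0.10) in SPF LKO livers, and the others were not called there. The part of these levels in the differences above was not tested.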

How the data were processed

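Livers of 72 mice were sequenced by the authors as stranded mRNA libraries, single-end with 50 bases, and the deposited table holds raw counts per Ensembl gene. The authors aligned reads with STAR 2.6.1b to mm10 and joined lanes. Per the file headers, they counted exons by gene with featureCounts 2.0.0 on the Ensembl 97 annotation. No strand option is given there, so antisense partners could not be told apart. The deposited gene length was used only for RPKM. Every column of the table matched 1 sample by name.

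Genes kept by filterByExpr went into quasi-likelihood F tests of edgeR 4.0.16 under R 4.3.3, with TMM scaling and Benjamini-Hochberg adjustment over all genes tested, with a threshold of 0.05. Each pooled comparison used the 36 libraries of its 2 groups, that at each ZT the 12 libraries of all 4 groups at that time, and the interaction and the rhythms all 72 libraries. SEs are the log2 difference divided by the square root of F. Rhythms were tested with cosine and sine terms of 24 h. Peak times and swings are least-squares fits to log2 CPM with a prior count of 2. P-values at a single ZT rest on the spread between mice. The pooled comparisons and the interaction had no term for ZT, so their spread also holds variation with time of day. Those of the rhythms rest on the spread around the fitted cosine. The fits were tested on simulated counts with 200 genes changed and the same setting of spread for every gene. No time of day was simulated in the group comparisons. In a simulated 18 against 18 comparison 100% of genes changed 2-fold were recovered, and 90.5% in 3 against 3, with 3.38% and 3.72% of calls false. The rhythm test recovered 98% with 7.11% of calls false, and the test of a rhythm difference 60% with 9.09% false.

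Alternatives were DESeq2 1.42.0, RLE size factors, no count filter, ZT as a covariate, the replicate number as a block, only 2 groups in the fit at each ZT, limma 3.58.1 on variance-stabilised values, the 6 ZT means, leaving out each library or replicate and, chosen after seeing the data, leaving out the 4 libraries that went against their labels. The 9 genes and the gene lists were chosen with earlier results of these data known. All 9 were named, and from the pathway list the 3 called genes with the largest rise and fall in each pooled comparison, from which those in the text were taken. A gene of that list is not reported here.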

Additional observations from a re-analysis of the deposited data

Results flagged for a closer look

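With all libraries, the test of the difference itself called the 24 h rhythm of 3 of the 9 genes in at least 1 comparison. For Bhmt the rhythm differed between LKO and WT livers of SPF mice (adjusted p = 0.00236 by edgeR), where 1.77% of all genes were called. For Cdo1 it differed between LKO and WT livers of SPF mice (adjusted p = 0.0332) and of GF mice (adjusted p = 0.00245, with 5.89% of all genes called). From the 6 ZT means the SPF comparison called 1 of the 9. For Ahcy the rhythm differed between GF and SPF livers of LKO mice (adjusted p = 0.0419), where 2.54% of all genes were called. The adjusted p for Ahcy rose to 0.234 without the 4 libraries whose clock genes went against their label. By limma and from the 6 ZT means that comparison called 0 of the 9.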

How the results depend on the processing

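The pooled counts of 6, 6, 8 and 8 genes held under each single library left out, RLE size factors and DESeq2. Without the count filter Gnmt lost its genotype call in SPF mice, and with ZT as a covariate or the replicate block Cth gained one in GF mice. Over all genes, the interaction gave 59 calls, and 38 to 69 with a library left out. Same-numbered mice did not deviate together (r from -0.466 to 0.458), so the numbers do not pair them. The replicate block moved no pooled or rhythm count by over 1.5 times, with Cth at a log2 difference of 0.28 in the pooled genotype effect of GF mice, and 10 of 58 gene calls at single times were lost under it. Of the same 58 calls 17 were lost with 2 groups in the fit, and 120 of 348 refits without 1 library of the comparison lost the call.

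Rhythm calls moved more, and the cause was not tested. From the 6 ZT means, 1672 genes were rhythmic in SPF LKO livers. With 1 replicate number left out, 1359 to 1915 genes and 3 to 6 of the 9 were rhythmic in SPF WT livers, 638 to 1705 genes in SPF LKO, 2449 to 3168 in GF WT, and 2267 to 2553 genes and 1 to 2 of the 9 in GF LKO livers. The rhythm differences then gave 62 to 128 genes and 0 to 1 of the 9 for genotype in SPF mice, 200 to 522 and 0 to 1 in GF mice, 1 to 4 genes for microbial state in WT mice, and 0 to 4 genes and 0 of the 9 in LKO mice. The genotype difference of the rhythm in SPF mice was called for 119 genes and 1 of the 9 from ZT means, and for 407 and 4 without the 4 doubted libraries. In GF mice it was called for 467 genes from ZT means, and for 2 of the 9 without the filter and without the 4 libraries. The microbial difference in WT mice was called for 39 genes without the filter, 1 by limma, 2 from ZT means and 86 without the 4 libraries. In LKO mice it was called for 5 genes from ZT means and 145 without the 4 libraries, and for 0 of the 9 by limma, from ZT means and without the 4 libraries.

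Summed over the 6 times, the genotype effect in SPF mice gave 7657 gene calls without the filter, and 26 calls of the 9 genes, or 17 without the 4 libraries, and in GF mice 9895 gene calls without the filter. The microbial effect in WT mice gave 6837 gene calls without the filter, 5069 by DESeq2 and 776 with 2 groups in the fit, and 29, 28 and 6 calls of the 9 genes, or 19 without the 4 libraries. In LKO mice it gave 6999 and 5110 gene calls without the filter and by DESeq2, and 31 calls of the 9 genes in both. With a library left out, the sums of gene calls were 1435 to 2772 for the microbial effect in WT and 1323 to 2323 in LKO mice.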
